A study of Mus musculus with 6 samples.

Results

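The 40 genes described here are 18 genes of DNA replication and of the entry into S phase, and 22 genes of mitosis. They were chosen by symbol among the 24498 gene rows of a read count table, and all 40 passed the filter on low counts that kept 13846 genes for testing. RNA had been sequenced in bulk from prostate epithelial cells that carried a genetic mark and were sorted by FACS from male mice. Clu+ cells came from mice with a Clu-CreER(T2) allele, in which the gene of the chaperone clusterin drives an inducible Cre recombinase, and the red reporter CAG-tdTomato at the ROSA26 locus. The cells labelled Nkx+ came from mice with another CreER(T2) driver and an EYFP reporter at ROSA26. Nkx+ cells were taken from intact males (Nkx intact) and from males that had been castrated when 8 weeks old (Nkx castrate), and Clu+ cells from intact males (Clu intact). Tissue was harvested 4 weeks after that age in all 3 groups. Each group held 2 libraries, named here by group and number. The labels do not say whether these are separate animals, and the p-values thus measure a spread that may be technical. Clu intact differs from both Nkx groups in driver, reporter and mouse line at once, and these cannot be told apart.

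A cell that commits to division loads the MCM helicase onto its DNA in G1, with the help of Cdc6 and Cdt1. It then starts replication in S phase with Cdc45 and the GINS complex, and makes deoxynucleotides with ribonucleotide reductase and thymidylate synthase. The RNAs of the mitotic kinases, cyclins, kinetochore proteins and spindle motors accumulate later, in G2 and M. E2F transcription factors control many of the S phase genes, and many mitotic genes are repressed in resting cells by the DREAM complex and activated by B-Myb and Foxm1 through a short promoter element called CHR, often with CCAAT boxes nearby. Most epithelial cells of the adult prostate do not divide, and castration makes the gland regress. Genes of replication and genes of mitosis therefore report on different stretches of the cycle, and they are given apart.

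The promoters of the members were searched for the letters of these elements. Each window held 250 bases before and 50 bases after a start site in RefSeq on GRCm38.p6. A window was found for 15 of the 18 replication genes and 17 of the 22 mitosis genes, and a gene counted once if any of its windows held the letters on either strand. The E2F letters were TTTGGCGC, TTTCCCGC, TTTGGCGG or TTTCGCGC. They stood in 46.7% of the 15 replication genes (7 genes) and in 5.88% of the 17 mitosis genes (1 gene, Cdk1). The background was 2.7% of all 27025 genes of the promoter table and 4.85% of the 10687 tested genes with a window. The CHR letters TTTGAA stood in 13.3% of the replication genes (2 genes) and in 70.6% of the mitosis genes (12 genes), against 20.2% and 14.6%. CCAAT stood in 66.7% (10 genes) and 88.2% (15 genes), against 41.1% and 42.6%. CHR and CCAAT stood in the same gene in 12 mitosis genes and 2 replication genes, against 7.97% of the table and 5.93% of the tested genes. A match of letters is a description and not a binding site.

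These sequences are the 250 bases before the start of Mcm5 (chr8:75109259-75109508, plus strand) and Mcm6 (chr1:128359706-128359955, minus strand), the MCM helicase genes that hold E2F letters and were called higher in Clu intact than in Nkx castrate (Mcm3 and Mcm7 hold them too and were not called). Capitals mark the E2F letters, some of which overlap.
Mcm5: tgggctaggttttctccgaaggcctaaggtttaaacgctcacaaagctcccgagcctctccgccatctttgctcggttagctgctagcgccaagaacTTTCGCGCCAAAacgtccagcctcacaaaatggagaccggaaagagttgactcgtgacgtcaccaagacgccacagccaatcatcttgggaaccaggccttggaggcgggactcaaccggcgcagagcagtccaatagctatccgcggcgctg
Mcm6: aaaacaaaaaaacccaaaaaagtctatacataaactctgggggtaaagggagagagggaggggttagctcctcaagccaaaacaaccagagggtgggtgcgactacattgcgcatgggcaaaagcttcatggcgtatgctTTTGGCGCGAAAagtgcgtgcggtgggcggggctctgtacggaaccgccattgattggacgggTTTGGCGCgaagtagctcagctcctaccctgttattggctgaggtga
In Mcm5 the capitals hold TTTCGCGC and, on the opposite strand, TTTGGCGC, first bases 153 and 149 bases upstream of the start. In Mcm6 the matches begin 110, 106 and 47 bases upstream.

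Top2a (chr11:99024190-99024439, minus strand) and Cdk1 (chr10:69352913-69353162, minus strand) are shown as mitosis genes that hold both the CHR and the CCAAT letters, which the capitals mark.
Top2a: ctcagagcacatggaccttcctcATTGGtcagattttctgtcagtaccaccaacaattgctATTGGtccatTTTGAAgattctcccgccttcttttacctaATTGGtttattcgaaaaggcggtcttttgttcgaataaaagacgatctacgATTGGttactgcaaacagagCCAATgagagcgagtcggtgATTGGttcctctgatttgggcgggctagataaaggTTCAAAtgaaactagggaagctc
Cdk1: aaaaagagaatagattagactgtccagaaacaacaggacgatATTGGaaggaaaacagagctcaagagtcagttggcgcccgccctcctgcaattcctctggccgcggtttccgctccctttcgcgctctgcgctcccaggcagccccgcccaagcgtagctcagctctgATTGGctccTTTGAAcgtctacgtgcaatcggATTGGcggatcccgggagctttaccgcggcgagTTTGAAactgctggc
In Top2a the CHR letters begin 179 and 23 bases upstream of the start, with 6 CCAAT boxes on either strand. In Cdk1 they begin 71 and 15 bases upstream, with 3 CCAAT boxes, and its E2F match lies 131 bases upstream (not in capitals).

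Depth lay between 10220118 and 17412874 counts per library. Expression is given as CPM, counts scaled to the library total after TMM scaling with factors from 0.945 to 1.04, so that 1 count was worth 0.0561 to 0.0988 CPM. Epithelial markers were present in all 6 libraries: the epithelial adhesion gene Epcam stood at 345 and 336 CPM in Nkx intact, 474 and 716 after castration and 728 and 839 in Clu intact, and the luminal keratin Krt8 at 792 and 705 CPM in Nkx intact, 2179.5 and 2558 after castration and 1169 and 1441 in Clu intact. Pbsn, an androgen-dependent secretory gene of the distal prostate, stood at 5393 and 6937 CPM in Nkx intact, 106 and 112 after castration and 2634 and 1957 in Clu intact. Clu, the gene whose driver marked the Clu+ cells, stood at 323 and 245 CPM in Nkx intact, 721 and 844 after castration and 1808 and 1934 in Clu intact, so its RNA was present in every group. The basal gene Krt5 stood at 399 and 393 CPM in Nkx intact, 288 and 157 after castration and 61.8 and 99.2 in Clu intact, and all groups held RNA of basal markers.

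The summed RNA of the 22 mitosis genes was lowest in Nkx castrate and highest in Clu intact, and the groups did not overlap. The sum was 101 and 123 CPM in Nkx intact, 48.3 and 26.6 after castration and 232 and 387 in Clu intact. The 18 replication genes together stood at 249.8 and 254 CPM in Nkx intact, 232 and 217 after castration and 314 and 530.1 in Clu intact. Between Nkx intact and Nkx castrate the difference was thus small for these 18 genes and large for the 22 mitosis genes. The sum of 55 other mitosis genes, described below, did not fall with castration. It was 261 and 260 CPM in Nkx intact, 271 and 304 after castration and 421 and 594 in Clu intact. Of this sum the spindle checkpoint gene Mad2l1 held 3.44 and 3.75 CPM in Nkx intact, and 65.0 and 107 after castration. This rise of Mad2l1 exceeded that of the sum. The remaining genes together were lower in both Nkx castrate libraries than in both Nkx intact libraries. Of the 55 genes, 40 had a fitted change below 0 between Nkx castrate and Nkx intact, and 15 above. The sum of the 22 mitosis genes was 40.3% and 48.7% of the replication sum in Nkx intact, 20.9% and 12.3% after castration and 73.8% and 73.0% in Clu intact. In bulk RNA, fewer cells in division and less of these RNAs per cell cannot be told apart. An exact permutation test of 2 against 2 libraries cannot go below p = 0.333, so no test of a sum is given.

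**Figure D1:**
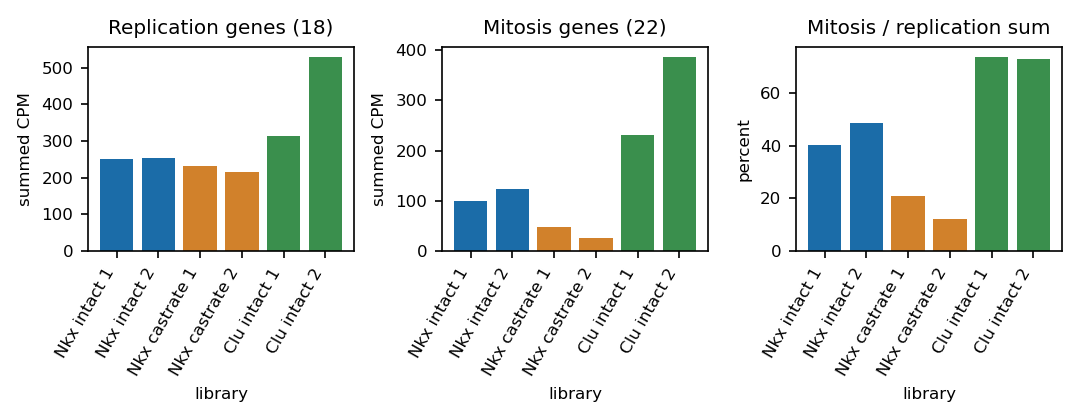
Summed CPM of the 18 replication genes and of the 22 mitosis genes in each library, and the mitosis sum as a percent of the replication sum; bars are single libraries, coloured by group. The mitosis sum of both Nkx castrate libraries lies below both Nkx intact libraries, and both Clu intact libraries lie above all others.

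The order of the mitosis sums did not rest on the gene with the most counts, while much of the gap between replication sums did. Without Mki67 the mitosis sum was 78.6 and 91.9 CPM in Nkx intact, 41.4 and 25.3 in castrates and 163 and 267 in Clu intact. Without Mcm6 the replication sum was 218 and 243, 204 and 195, and 246 and 423 CPM in the same order. Clu intact 1 then stood barely above Nkx intact 2, at 246 against 243 CPM, beside 314 against 254 CPM with Mcm6. Libraries of a group also differed. Clu intact 2 stood above Clu intact 1 in 18 of 18 replication genes and 20 of 22 mitosis genes, with sums 1.69 and 1.67 times as high, and it was the highest of the 6 libraries for 31 of the 40 genes. Nkx castrate 1 stood above Nkx castrate 2 in 15 of 22 mitosis genes, with a sum 1.82 times as high, but in only 9 of 18 replication genes. In Nkx castrate 2, 7 mitosis genes (Cdk1, Ccna2, Ccnb1, Ccnb2, Bub1, Aurkb and Birc5) had 0 counts, which allows a level of up to 0.222 CPM each, and no gene of either list was at 0 counts in another library. This limit covers counting error only.

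Castration of the Nkx line was compared first, which asks how the cell cycle genes of the marked cells stand 4 weeks after androgen withdrawal. In Nkx castrate, 3 mitosis genes were called lower (Mki67, Top2a and Prc1) and 2 replication genes (Rrm2 and Uhrf1), at an adjusted p under 0.05 (edgeR, quasi-likelihood, p-values adjusted by Benjamini-Hochberg over the 13846 genes). No gene of either list was called higher (at an unadjusted p under 0.05, 1 replication gene was higher and 0 mitosis genes). At that unadjusted p, 1651 of the 13846 genes were higher. Among all genes tested 4.59% were called lower and 4.02% higher. The median log2 fold change was -1.91 over the mitosis genes and -0.34 over the replication genes, beside 0.05 over all genes.

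Rrm2, the small subunit of ribonucleotide reductase that is made in S phase and limits the supply of deoxynucleotides, stood at 14.3 and 18.3 CPM in Nkx intact, 3.20 and 2.96 after castration and 15.7 and 19.8 in Clu intact. Both Nkx castrate libraries were far below all others, at a level 5.26-fold lower than in Nkx intact (log2 fold change -2.40 ± 0.35 SE, adjusted p = 0.00673). Its partner Rrm1, the large subunit, stood at 31.8 and 41.7 CPM in Nkx intact, 33.7 and 23.8 after castration and 37.1 and 50.7 in Clu intact, and the Nkx groups overlapped. Uhrf1, which brings the maintenance methyltransferase to newly replicated DNA, stood at 7.65 and 4.74 CPM in Nkx intact, 1.23 and 1.18 after castration and 17.3 and 32.0 in Clu intact. The 3 groups did not overlap, and Uhrf1 was 5.09-fold lower in Nkx castrate than in Nkx intact (log2 fold change -2.35 ± 0.48 SE, adjusted p = 0.0243).

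Mki67, the gene of the proliferation antigen Ki-67 that coats mitotic chromosomes, stood at 22 and 31.6 CPM in Nkx intact, 6.96 and 1.33 after castration and 68.3 and 119.8 in Clu intact. Its 3 groups were apart, and it was 6.32-fold lower in Nkx castrate than in Nkx intact (log2 fold change -2.66 ± 0.64 SE, adjusted p = 0.0421). Top2a, the topoisomerase that untangles sister chromatids, stood at 13.4 and 22.8 CPM in Nkx intact, 3.14 and 0.739 after castration and 31.1 and 51.1 in Clu intact. It too was apart in the 3 groups and 9.05-fold lower in Nkx castrate (log2 fold change -3.18 ± 0.62 SE, adjusted p = 0.0195). Prc1, which bundles the microtubules of the central spindle, stood at 14.2 and 9.38 CPM in Nkx intact, 3.59 and 2.66 after castration and 10.3 and 17.6 in Clu intact, 3.75-fold lower in Nkx castrate than in Nkx intact (log2 fold change -1.91 ± 0.46 SE, adjusted p = 0.0421). In Prc1 11.1% of the exon bases in GENCODE M21 also belong to Rccd1, and whether the counting used strand is not given in the sources used here.

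Tyms, thymidylate synthase, stood at 3.44 and 2.96 CPM in Nkx intact, 8.59 and 11.8 after castration and 8.77 and 11.7 in Clu intact. Both Nkx castrate libraries stood above both Nkx intact libraries, but the change did not pass the threshold (adjusted p = 0.0541 with edgeR). Of the 22 mitosis genes 19 had a fitted change below 0 and 3 above, and 14 were lower with no overlap between the 4 libraries, a pattern that 24.6% of all tested genes show. Of the 18 replication genes 11 were below 0 and 7 above, 7 were lower without overlap and 3 higher without overlap (25.4% of all genes).

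These 5 calls depended on the Nkx intact libraries. Over all genes, too, fewer were called without an Nkx intact or a Clu intact library, and more without an Nkx castrate library. The losses are thus not particular to these 5 genes. Without Nkx intact 1 only Rrm2 was still called and without Nkx intact 2 none of the 5 (adjusted p up to 0.217 and 0.235). All 5 were kept without Nkx castrate 1 and without Nkx castrate 2, 4 without Clu intact 1 and 2 without Clu intact 2 (adjusted p up to 0.0626 and 0.0828). The log2 fold changes of Mki67 and Top2a were -4.32 and -4.59 without Nkx castrate 1, and -1.95 and -2.53 without Nkx castrate 2. Limma-voom, and a fit to the Nkx libraries alone, called only Rrm2 of the 5.

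Clu intact and Nkx intact compare cells of the 2 mouse lines with androgen present. In Clu intact, 3 replication genes (Mcm6, Tyms and Uhrf1) and 1 mitosis gene (Cenpe) were called higher, and no gene of either list was called lower with edgeR (0 at an unadjusted p under 0.05 also). Among all genes 6.29% were called higher and 5.0% lower. At an unadjusted p under 0.05, 1743 of the 13846 genes were lower. The median log2 fold change was 0.86 over the replication genes and 1.31 over the mitosis genes, beside -0.01 over all genes.

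Mcm6, a subunit of the ring-shaped MCM helicase, stood at 31.9 and 11.2 CPM in Nkx intact, 27.9 and 21.9 after castration and 68.1 and 107 in Clu intact. Both Clu intact libraries lay above the 4 others, 4.06-fold above Nkx intact (log2 fold change 2.02 ± 0.47 SE, adjusted p = 0.0308), although the libraries of Nkx intact differed. Tyms was 3.18-fold higher in Clu intact than in Nkx intact (1.67 ± 0.43 SE on the log2 scale, adjusted p = 0.0460), and its Clu intact and Nkx castrate values overlapped. Uhrf1 was 3.97-fold higher (log2 fold change 1.99 ± 0.45 SE, adjusted p = 0.0279). Cenpe, the kinesin that carries chromosomes to the spindle equator, stood at 3.06 and 2.37 CPM in Nkx intact, 2.75 and 4.58 after castration and 10.04 and 15.1 in Clu intact. Both Clu intact libraries were the highest, 4.60-fold above Nkx intact (log2 fold change 2.20 ± 0.52 SE, adjusted p = 0.0334).

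Most mitosis genes had higher values in Clu intact than in Nkx intact without passing the threshold. Fitted changes were above 0 in 21 of 22 mitosis genes, 18 of them with no overlap between the libraries, beside 31.9% of all genes. The proliferation antigen gene Mki67 was one of these (adjusted p = 0.0961 with edgeR). The replication genes were above 0 in 16 of 18, with 9 higher without overlap. The 2 genes lower without overlap, a pattern of 31.3% of all genes, were Pcna and Cdt1. Pcna, the sliding clamp of the replicative polymerases, stood at 47.2 and 51.8 CPM in Nkx intact, 34.4 and 37.6 after castration and 29.4 and 46.6 in Clu intact. Cdt1, which loads the MCM helicase and is destroyed once replication starts, stood at 9.95 and 12.1 CPM in Nkx intact, 19.9 and 4.95 after castration and 5.40 and 8.47 in Clu intact, with a wide spread in Nkx castrate.

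All 4 calls rested on the libraries compared. Over all genes, too, fewer were called without an Nkx intact or a Clu intact library, and more without an Nkx castrate library. Without Nkx intact 1 only Mcm6 was kept, at a log2 fold change of 2.98, and none was kept without Nkx intact 2, Clu intact 1 or Clu intact 2 (adjusted p up to 0.173, 0.211, 0.136 and 0.320 in that order). All 4 were kept without either Nkx castrate library. With limma-voom only Mcm6 of the 4 was called.

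**Figure D2:**
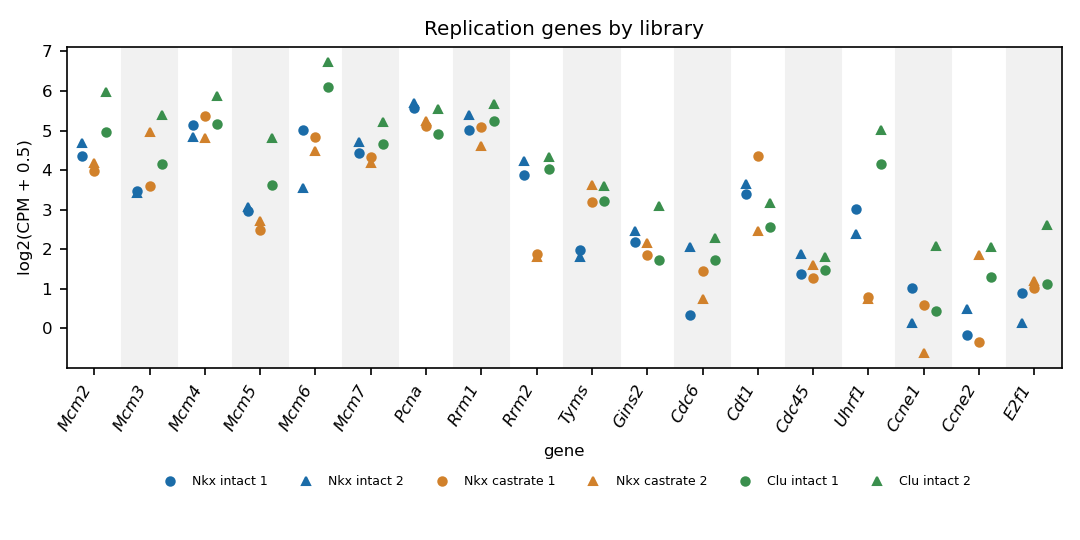
Level of each of the 18 replication genes in the 6 libraries as log2(CPM + 0.5), with circles for library 1 and triangles for library 2 of each group. Rrm2 and Uhrf1 are the genes whose 2 Nkx castrate libraries lie clearly below all others, and Clu intact 2 is the highest library for 14 of the 18 genes.

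Clu intact and Nkx castrate were compared last. These groups differ in castration as well as in driver, reporter and mouse line, and these cannot be told apart. In Clu intact, 13 of the 22 mitosis genes and 5 of the 18 replication genes were called higher with edgeR, beside 8.82% of all genes. No gene of either list was called lower (0 also at an unadjusted p under 0.05), beside 8.10% of all genes. At that unadjusted p, 2264 of the 13846 genes were lower. The median log2 fold change was 3.37 over the mitosis genes and 0.73 over the replication genes, with a median over all genes of -0.00298. For the mitosis genes this median was the largest of the 3 comparisons, while for the replication genes that between Clu intact and Nkx intact was larger. This comparison shares its libraries with the other two, so it is no independent evidence of them.

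Among the MCM helicase genes, Mcm2, Mcm5 and Mcm6 were called. Mcm2 stood at 20.1 and 25.3 CPM in Nkx intact, 15.2 and 17.7 after castration and 30.5 and 62.7 in Clu intact, and its 3 groups did not overlap (log2 fold change 1.50 ± 0.36 SE between Clu intact and Nkx castrate, adjusted p = 0.0254). Mcm5 was apart in the same way, at 7.37 and 7.90 CPM in Nkx intact, 5.11 and 6.06 after castration and 11.9 and 27.4 in Clu intact (1.81 ± 0.46 SE, adjusted p = 0.0321). Mcm6 was higher by 1.81 ± 0.46 SE on the log2 scale (adjusted p = 0.0326). The other MCM subunits were not called: Mcm3 stood at 10.5 and 10.3 CPM in Nkx intact, 11.6 and 30.5 after castration and 17.3 and 41.2 in Clu intact. Mcm4 stood at 34.6 and 28.1 CPM in Nkx intact, 41.1 and 27.6 after castration and 35.3 and 57.9 in Clu intact, and Mcm7 at 20.9 and 25.7 CPM in Nkx intact, 19.6 and 17.7 after castration and 24.9 and 36.5 in Clu intact. In Mcm3 and Mcm4 the libraries of Clu intact and Nkx castrate overlapped, while in Mcm7 both Clu intact libraries stood above both Nkx castrate libraries.

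Rrm2 was 5.74-fold higher in Clu intact than in Nkx castrate (log2 fold change 2.52 ± 0.35 SE, adjusted p = 0.00319), and its values in Clu intact and Nkx intact overlapped. Uhrf1 showed a 20.2-fold difference (log2 fold change 4.34 ± 0.50 SE, adjusted p = 0.00163). In both genes the 2 Nkx castrate libraries lay close together.

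The replication genes not yet described were not called in any of the 3 comparisons. Gins2, a subunit of the GINS complex, stood at 4.02 and 5.04 CPM in Nkx intact, 3.09 and 3.99 after castration and 2.78 and 8.09 in Clu intact, and 67.3% of its exon bases also belong to Gse1 on the opposite strand. Cdc45, the partner of GINS in the active helicase, stood at 2.10 and 3.16 CPM in Nkx intact, 1.91 and 2.51 after castration and 2.28 and 3.01 in Clu intact. In both genes Clu intact overlapped each of the Nkx groups. Cdc6, the loader of the MCM helicase, stood at 0.765 and 3.65 CPM in Nkx intact, 2.24 and 1.18 after castration and 2.78 and 4.33 in Clu intact. The cyclin E genes, which drive the entry into S phase, were low: Ccne1 stood at 1.53 and 0.593 CPM in Nkx intact, 1.01 and 0.148 after castration and 0.844 and 3.76 in Clu intact, and Ccne2 at 0.383 and 0.889 CPM in Nkx intact, 0.281 and 3.10 after castration and 1.94 and 3.67 in Clu intact. E2f1, the founding factor of the E2F family, stood at 1.34 and 0.593 CPM in Nkx intact, 1.52 and 1.77 after castration and 1.69 and 5.64 in Clu intact, with Clu intact 2 standing apart from Clu intact 1.

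Among the mitosis genes, Mki67 was 22.2-fold higher in Clu intact than in Nkx castrate (log2 fold change 4.47 ± 0.67 SE, adjusted p = 0.00449) and Top2a 20.5-fold (4.36 ± 0.64 SE, adjusted p = 0.00390). Tpx2, which activates Aurora A and nucleates spindle microtubules, stood at 2.30 and 2.17 CPM in Nkx intact, 0.168 and 1.03 after castration and 11.8 and 17.6 in Clu intact. The 3 groups were apart, and Clu intact exceeded Nkx castrate by 4.64 ± 0.82 SE on the log2 scale (adjusted p = 0.00828). Cenpf, a large kinetochore protein of G2 and M, stood at 4.59 and 10.3 CPM in Nkx intact, 4.04 and 0.591 after castration and 22.1 and 50.8 in Clu intact (3.94 ± 0.84 SE, adjusted p = 0.0167). Cenpe was higher by 1.78 ± 0.51 SE (adjusted p = 0.0494), close to the threshold, and was not called with RLE scaling.

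Kif20a, Kif11 and Prc1, further called genes of spindle motors and of the central spindle, were higher in Clu intact than in Nkx castrate. Unlike the kinesin gene Cenpe, they were not called between Clu intact and Nkx intact. Kif20a, a kinesin of cytokinesis, stood at 4.40 and 3.95 CPM in Nkx intact, 0.449 and 0.887 after castration and 4.47 and 9.69 in Clu intact (log2 fold change 3.40 ± 0.73 SE, adjusted p = 0.0167), and 29.3% of its exon bases also belong to Cdc23 on the opposite strand. Kif11, the motor that pushes the spindle poles apart, stood at 2.87 and 1.09 CPM in Nkx intact, 0.786 and 1.77 after castration and 6.58 and 9.88 in Clu intact (2.69 ± 0.76 SE, adjusted p = 0.0480). In both, the Clu intact libraries were the highest of the 6. Prc1 was higher by 2.15 ± 0.46 SE (adjusted p = 0.0166).

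Among the kinases, cyclins and ubiquitin enzymes, Plk1, Ccnb2, Ube2c, Bub1 and Aurkb were called higher in Clu intact than in Nkx castrate, and Cdk1, Aurka, Bub1b, Ccna2 and Ccnb1 were not called. Plk1, the polo kinase, stood at 0.574 and 1.38 CPM in Nkx intact, 1.46 and 0.444 after castration and 6.24 and 9.69 in Clu intact (log2 fold change 3.03 ± 0.84 SE, adjusted p = 0.0441). Ccnb2, a B-type cyclin that activates Cdk1, stood at 2.49 and 1.78 CPM in Nkx intact, 0.561 and 0 after castration and 4.98 and 6.40 in Clu intact (4.22 ± 1.20 SE, adjusted p = 0.0483). Ube2c, the ubiquitin-conjugating enzyme of the anaphase-promoting complex, stood at 1.53 and 3.75 CPM in Nkx intact, 0.112 and 0.444 after castration and 6.16 and 5.27 in Clu intact (4.36 ± 0.96 SE, adjusted p = 0.0186), and 22.8% of its exon bases also belong to Tnnc2. In all 3 the Clu intact libraries lay above every other library.

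Bub1, a spindle checkpoint kinase, stood at 1.53 and 0.593 CPM in Nkx intact, 0.112 and 0 after castration and 1.86 and 3.01 in Clu intact. Aurkb, the kinase of the chromosomal passenger complex, stood at 0.383 and 0.790 CPM in Nkx intact, 0.112 and 0 after castration and 2.02 and 3.57 in Clu intact. Each had 2 counts in all in Nkx castrate. The ratio of Clu intact to Nkx castrate was 37.6 for Bub1 (95% counting interval 9.93 to 319) and 43.2 for Aurkb (11.5 to 365). EdgeR gave adjusted p = 0.0451 and 0.0387. The counting intervals leave out the spread between libraries.

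**Figure D3:**
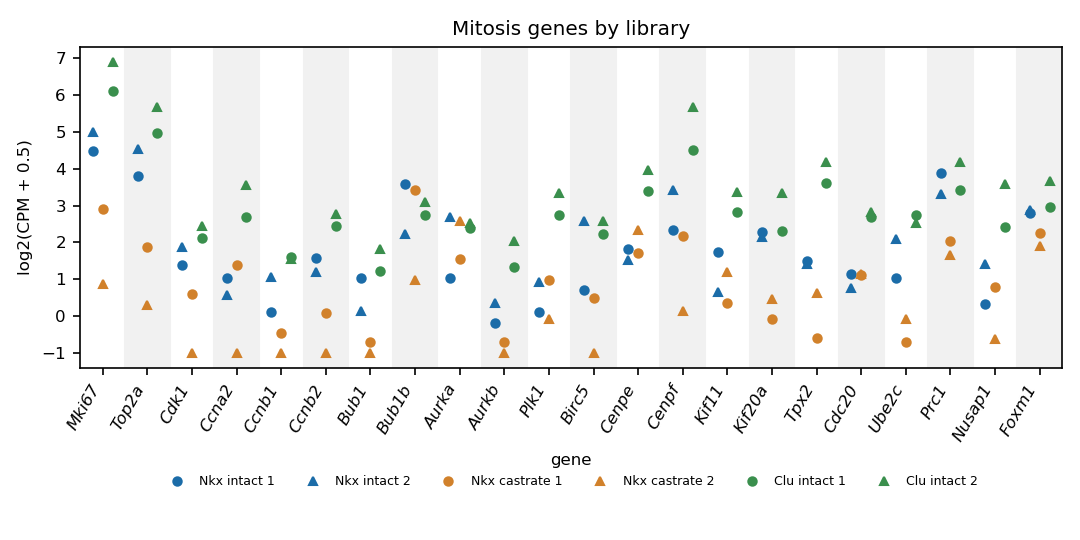
Level of each of the 22 mitosis genes in the 6 libraries as log2(CPM + 0.5), with circles for library 1 and triangles for library 2 of each group; the lowest possible value, -1, is 0 counts. In 12 of the 22 genes both Clu intact libraries lie above both Nkx intact libraries and these above both Nkx castrate libraries.

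The other 9 mitosis genes were not called between Clu intact and Nkx castrate. Cdk1, the kinase that starts mitosis, stood at 2.10 and 3.16 CPM in Nkx intact, 1.01 and 0 after castration and 3.88 and 4.99 in Clu intact. Ccnb1, its cyclin B1 partner, stood at 0.574 and 1.58 CPM in Nkx intact, 0.224 and 0 after castration and 2.53 and 2.45 in Clu intact. Both were apart in the 3 groups but rested on few counts. Ccna2, the cyclin of S and G2, stood at 1.53 and 0.988 CPM in Nkx intact, 2.13 and 0 after castration and 5.91 and 11.3 in Clu intact. Birc5, the survivin gene of the passenger complex, stood at 1.15 and 5.53 CPM in Nkx intact, 0.898 and 0 after castration and 4.22 and 5.46 in Clu intact. Ccna2 and Birc5 had 38 and 16 counts in Nkx castrate 1 and 0 in Nkx castrate 2, so the 2 castrate libraries disagreed. Nusap1, which links microtubules to chromatin, stood at 0.765 and 2.17 CPM in Nkx intact, 1.23 and 0.148 after castration and 4.89 and 11.5 in Clu intact. Cdc20, the activator of the anaphase-promoting complex, stood at 1.72 and 1.19 CPM in Nkx intact, 1.68 and 1.70 after castration and 5.99 and 6.58 in Clu intact. In Ccna2, Nusap1 and Cdc20 the Clu intact libraries were higher than all 4 Nkx libraries. Foxm1, the factor that activates many of these genes, stood at 6.50 and 6.82 CPM in Nkx intact, 4.27 and 3.25 after castration and 7.34 and 12.1 in Clu intact, with its groups apart by small steps.

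The exceptions were Bub1b and Aurka, whose groups overlapped in all 3 comparisons. Bub1b, the checkpoint protein BubR1, stood at 11.5 and 4.15 CPM in Nkx intact, 10.2 and 1.48 after castration and 6.24 and 8.00 in Clu intact. Aurka, the Aurora A kinase, stood at 1.53 and 5.93 CPM in Nkx intact, 2.41 and 5.54 after castration and 4.72 and 5.27 in Clu intact. Its libraries differed widely within each Nkx group.

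Between Clu intact and Nkx castrate, 20 of 22 mitosis genes and 8 of 18 replication genes were higher without overlap, beside 31.5% of all genes, and none was lower without overlap (30.0% of all genes). The full order, Clu intact above Nkx intact above Nkx castrate with no overlap between any groups, was shown by 12 of 22 mitosis genes (Mki67, Top2a, Cdk1, Ccnb1, Ccnb2, Bub1, Aurkb, Cenpf, Kif20a, Tpx2, Ube2c and Foxm1) and by 3 of 18 replication genes (Mcm2, Mcm5 and Uhrf1), beside 5.34% of all tested genes.

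Of the 18 calls between Clu intact and Nkx castrate, 4 were kept under every alternative tried: Rrm2, Uhrf1, Mki67 and Top2a, with adjusted p up to 0.0335, 0.0176, 0.0233 and 0.0233. Without Clu intact 2 only these 4 were kept (adjusted p up to 0.378), and 10 were kept without Clu intact 1 (up to 0.189), 10 without Nkx intact 1 (up to 0.104), 10 without Nkx intact 2 (up to 0.0934), 16 without Nkx castrate 1 (up to 0.0729) and 16 without Nkx castrate 2 (up to 0.0846). Without Clu intact 2 the log2 fold change was 0.91 for Mcm2, 1.12 for Mcm5, 2.76 for Kif20a and 3.26 for Cenpf. Without Nkx castrate 1 it was 6.13 for Mki67, 5.78 for Top2a, 9.01 for Ccnb2, 7.79 for Bub1, 7.99 for Aurkb, 5.92 for Cenpf, 4.13 for Plk1, 3.81 for Tpx2 and 3.66 for Ube2c. Ccnb2, Bub1 and Aurkb are then at 0 counts in the castrate library left, so these fitted values are no bounds. Without Nkx castrate 2 it was 3.76 for Mki67, 3.71 for Top2a, 3.33 for Ccnb2, 4.33 for Bub1, 4.53 for Aurkb, 3.18 for Cenpf, 3.38 for Kif11, 6.37 for Tpx2 and 5.56 for Ube2c. Size therefore moved with the library left out, and no called change of the 27 in the 3 comparisons changed sign under any alternative. All 27 had no overlap between the compared groups, so leaving out a library could hardly reverse their sign.

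**Figure D4:**
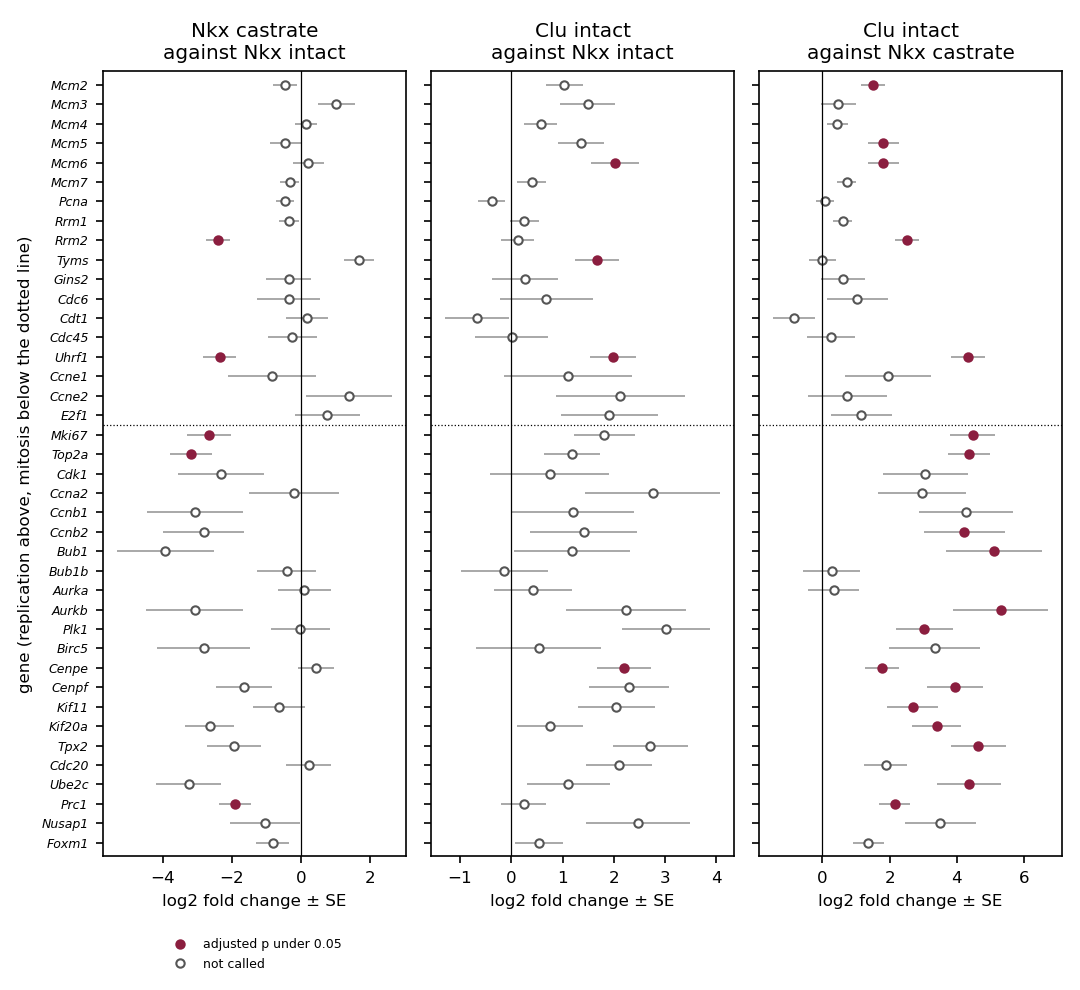
Log2 fold change with its SE for the 40 genes in each of the 3 comparisons, replication genes above the dotted line and mitosis genes below it; filled points have an adjusted p under 0.05 in edgeR's quasi-likelihood test. In the right panel all 22 mitosis genes lie to the right of 0, and in the left panel the called genes are Rrm2, Uhrf1, Mki67, Top2a and Prc1.

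Levels of different genes were compared per kilobase of exon in GENCODE M21. Among the replication genes Pcna had the highest level in Nkx intact, 20.6 ± 1.35 CPM per kb (SD, n = 2), and in Nkx castrate, 15.0 ± 0.928, ahead of Mcm4 at 8.73 ± 1.30 and 9.58 ± 2.66. In Clu intact Mcm6 had the highest mean, 18.7 ± 5.86 CPM per kb, and the ranges of Pcna, 15.8 ± 5.07, and Mcm4, 13.0 ± 4.47, overlapped it. Clu intact 2 stood above Clu intact 1 in 18 of 18 replication genes, so these SDs hold a shift that the genes share. The order of the genes within each library was not tested. Among the mitosis genes Mki67 led in Nkx intact at 2.66 ± 0.675 CPM per kb and in Clu intact at 9.35 ± 3.62, each time followed by Top2a at 2.01 ± 0.739 and 4.56 ± 1.56. In Nkx intact the ranges of mean ± SD of Top2a, Bub1b (1.83 ± 1.21) and Aurka (1.47 ± 1.23) overlapped that of Mki67. In Clu intact the ranges of Mki67 and Top2a met, but Clu intact 2 stood above Clu intact 1 in 20 of 22 mitosis genes. These SDs also hold a shared shift, so the ranges do not show that the genes were alike within a library. In Nkx castrate the highest means were those of Aurka, 1.57 ± 0.875, Bub1b, 1.37 ± 1.44, and Cdc20, 0.906 ± 0.00629, with overlapping ranges.

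Further genes of the cycle were read from 5 lists, beside the shares of all genes called lower and higher of 4.59% and 4.02% in Nkx castrate against Nkx intact, 5.0% and 6.29% in Clu intact against Nkx intact and 8.10% and 8.82% in Clu intact against Nkx castrate. Of 54 other replication genes (the origin recognition complex, polymerases, replication factor C and others), 1 was called lower in Nkx castrate than in Nkx intact and 0 in the other comparisons with edgeR. At an unadjusted p under 0.05, 1 was higher and 1 lower in Clu intact than in Nkx intact, and 7 higher and 1 lower than in Nkx castrate. Over all 13846 genes these counts were 1891 and 1743, and 2231 and 2264. The medians of their log2 fold changes were -0.07, 0.31 and 0.37 for castration, for the Clu line against Nkx intact and for the Clu line against Nkx castrate. The called gene was Rpa1, the large subunit of the single-strand binding protein, at 139 and 129 CPM in Nkx intact, 58.1 and 82.8 after castration and 97.6 and 121 in Clu intact (log2 fold change -0.93 ± 0.22 SE, adjusted p = 0.0408). That call was lost in each fit that left out an Nkx intact or a Clu intact library (adjusted p up to 0.213).

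Of 55 other mitosis genes, 1 was called higher and 3 lower in Nkx castrate than in Nkx intact, 5 higher and 1 lower in Clu intact than in Nkx intact, and 12 higher and 2 lower in Clu intact than in Nkx castrate, with medians of -0.39, 1.38 and 1.59. Beside them, the shares of all genes were 4.02% higher and 4.59% lower, 6.29% and 5.0%, and 8.82% and 8.10%. Kif23, a kinesin of the central spindle, stood at 5.55 and 3.95 CPM in Nkx intact, 1.46 and 1.33 after castration and 16.2 and 20.4 in Clu intact. The groups were apart, and it was called in all 3 comparisons (log2 fold changes -1.76 ± 0.44, 1.94 ± 0.42 and 3.70 ± 0.45 SE, adjusted p = 0.0475, 0.0237 and 0.00200). Ncaph, a condensin subunit, stood at 7.08 and 6.52 CPM in Nkx intact, 5.33 and 5.62 after castration and 30.4 and 45.4 in Clu intact, higher in Clu intact than in Nkx intact by 2.48 ± 0.32 SE (adjusted p = 0.00325) and than in Nkx castrate by 2.79 ± 0.32 SE (adjusted p = 0.00154). Smc4, the condensin ATPase, stood at 41.2 and 32.8 CPM in Nkx intact, 39.8 and 38.4 after castration and 82.2 and 95.8 in Clu intact, with 1.26 ± 0.21 SE between Clu intact and Nkx intact (adjusted p = 0.00852). Spc25, a kinetochore subunit, stood at 1.53 and 2.17 CPM in Nkx intact, 0.112 and 0 after castration and 5.06 and 8.47 in Clu intact, with 2 counts in Nkx castrate. The ratio of Nkx intact to Nkx castrate was 28.9 (95% counting interval 7.48 to 248), and that of Clu intact to Nkx castrate 104.6 (28.4 to 871), at adjusted p = 0.0367 and 0.00686. Its fitted log2 fold changes were -4.70 and 6.56, and they were -7.40 and 9.26 without Nkx castrate 1, where the library left is at 0 counts, and -3.93 and 5.80 without Nkx castrate 2. The call between Clu intact and Nkx castrate was kept without each library for Kif23 and Ncaph (adjusted p up to 0.0255 and 0.0243) and lost for Spc25 without Clu intact 2 (adjusted p = 0.0813). Ncaph also kept its call against Nkx intact (up to 0.0488). Against Nkx intact, the calls of Kif23 (adjusted p up to 0.235 and, for Nkx castrate, 0.201) and Spc25 (up to 0.167) were lost without either Nkx intact and either Clu intact library, and that of Smc4 without either Nkx intact library or Clu intact 2 (up to 0.0927). The count of 12 higher genes between Clu intact and Nkx castrate was 2 without Clu intact 2 and 23 without Nkx castrate 1.

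Mad2l1, a spindle checkpoint protein, was the only one of the 55 called higher in Nkx castrate than in Nkx intact. It stood at 3.44 and 3.75 CPM in Nkx intact, 65.0 and 107 after castration and 8.61 and 12.8 in Clu intact, so Nkx castrate held the highest level by far (log2 fold change 4.57 ± 0.36 SE against Nkx intact, adjusted p = 0.000804, and -3.01 ± 0.33 SE for Clu intact against Nkx castrate, adjusted p = 0.00126). It was also higher in Clu intact than in Nkx intact (1.57 ± 0.34 SE, adjusted p = 0.0255). Pttg1, the securin gene, stood at 13.0 and 8.10 CPM in Nkx intact, 9.60 and 11.4 after castration and 1.35 and 1.88 in Clu intact and was lower in Clu intact than in Nkx intact (-2.70 ± 0.49 SE, adjusted p = 0.0120). The calls of Mad2l1 that involve Nkx castrate were kept without each library in turn (adjusted p up to 0.0287 and 0.0118), that between Clu intact and Nkx intact was lost without either Nkx intact library or Clu intact 2 (up to 0.173), and that of Pttg1 was lost without Nkx intact 1 or either Clu intact library (up to 0.0985).

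Of 23 G1 cyclins, kinases, pocket proteins and E2F genes, 2 were called lower in Nkx castrate than in Nkx intact, 2 higher in Clu intact than in Nkx intact and 5 higher in Clu intact than in Nkx castrate, with medians of -0.14, 0.08 and 0.10. The shares of all genes called the same way were 4.59%, 6.29% and 8.82%. Ccnd1, the cyclin D1 gene that links growth signals to the cycle, stood at 84.4 and 89.6 CPM in Nkx intact, 54.8 and 46.3 after castration and 176 and 227 in Clu intact. It was apart in the 3 groups and called in each comparison (log2 fold changes -0.78 ± 0.19, 1.21 ± 0.19 and 1.99 ± 0.20 SE, adjusted p = 0.0475, 0.00761 and 0.000849), and 23.4% of its exon bases are shared with a gene on the opposite strand. Cdk6, a partner of cyclin D, stood at 39.6 and 29.4 CPM in Nkx intact, 28.2 and 52.1 after castration and 164 and 147 in Clu intact, higher in Clu intact than in Nkx intact by 2.17 ± 0.31 SE (adjusted p = 0.00495) and than in Nkx castrate by 1.95 ± 0.31 SE (adjusted p = 0.00533). Cdc25a, the phosphatase that activates the cyclin-dependent kinases and a member of both lists, stood at 36.1 and 31.9 CPM in Nkx intact, 14.3 and 9.46 after castration and 28.7 and 32.5 in Clu intact (-1.51 ± 0.28 SE between Nkx castrate and Nkx intact, adjusted p = 0.0158). E2f8, a repressor of the E2F family, stood at 1.53 and 1.19 CPM in Nkx intact, 0.281 and 0.296 after castration and 2.95 and 3.29 in Clu intact (3.39 ± 0.94 SE between Clu intact and Nkx castrate, adjusted p = 0.0448). Between Clu intact and Nkx castrate, Ccnd1 and Cdk6 were called without each library in turn (adjusted p up to 0.00815 and 0.0272), and E2f8 was lost without any of the 6 (up to 0.327). Against Nkx intact, the Clu intact call was lost for Ccnd1 without either Nkx intact library or Clu intact 2 (up to 0.0893) and for Cdk6 without Nkx intact 2 (0.0730). For Nkx castrate against Nkx intact, Cdc25a was lost without either Nkx intact library (up to 0.109), and Ccnd1 without these, without either Clu intact library (up to 0.263) and with RLE scaling.

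Of 7 tested inhibitors of cyclin-dependent kinases, 2 were called lower in Clu intact than in Nkx castrate, beside 8.10% of all genes. In the other comparisons 0 were called with edgeR. At an unadjusted p under 0.05, 2 were higher in Nkx castrate and 1 in Clu intact than in Nkx intact. Over all 13846 genes these counts were 1651 and 1891. Cdkn1a, the p21 gene, stood at 74.6 and 36.2 CPM in Nkx intact, 105 and 99.5 after castration and 46.7 and 38.3 in Clu intact (-1.26 ± 0.32 SE, adjusted p = 0.0332). Cdkn1c, the p57 gene, stood at 5.55 and 2.96 CPM in Nkx intact, 11.2 and 8.06 after castration and 2.28 and 2.63 in Clu intact (-1.97 ± 0.55 SE, adjusted p = 0.0446). Both were highest in the 2 Nkx castrate libraries. Of 23 tested genes of DNA damage and fork protection, Exo1, a repair exonuclease, was the only one called in Nkx castrate, lower than in Nkx intact (4.59% of all genes), at 14.2 and 7.70 CPM in Nkx intact, 2.47 and 1.70 after castration and 3.46 and 6.30 in Clu intact (-2.38 ± 0.58 SE, adjusted p = 0.0455). Brca2, a recombination gene, was the only one called in Clu intact against Nkx intact, higher (6.29% of all genes), at 4.02 and 3.95 CPM in Nkx intact, 9.65 and 9.24 after castration and 11.2 and 12.7 in Clu intact (1.58 ± 0.38 SE, adjusted p = 0.0361), and 0 were called between Clu intact and Nkx castrate (1 higher and 1 lower at an unadjusted p under 0.05). At that unadjusted p, 2231 of all 13846 genes were higher and 2264 lower in Clu intact than in Nkx castrate. The calls in both lists depended on single libraries. Cdkn1a was lost without either Clu intact library (adjusted p up to 0.230), Cdkn1c in 5 of the 6 fits without a library, all but that without Nkx castrate 2 (up to 0.229), and Exo1 and Brca2 without either Nkx intact and either Clu intact library (up to 0.265 and 0.242).

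RNA of other cell types was present and differed between libraries. RNA of the 20 leukocyte markers came to 124 and 107 CPM in Nkx intact, 205 and 30.5 after castration and 31.1 and 29.3 in Clu intact. RNA of the 14 fibroblast and smooth muscle markers came to 768 and 633 CPM in Nkx intact, 2259 and 569 after castration and 733 and 589.7 in Clu intact. RNA of the 12 endothelial markers came to 82.6 and 57.0 CPM in Nkx intact, 518 and 75.0 after castration and 1179 and 485 in Clu intact. Nkx castrate 1 exceeded Nkx castrate 2 in all 3, and it was also the Nkx castrate library with more mitosis RNA. Within the Clu libraries the endothelial sum was higher in library 1 while the mitosis and replication sums were higher in library 2. Among the defining markers, the leukocyte gene Ptprc stood at 4.78 and 6.12 CPM in Nkx intact, 19.4 and 2.51 after castration and 3.04 and 2.92 in Clu intact. The endothelial gene Pecam1 stood at 9.76 and 9.19 CPM in Nkx intact, 80.8 and 7.98 after castration and 214 and 90.2 in Clu intact. Col1a1, a fibroblast collagen, stood at 79.2 and 72.8 CPM in Nkx intact, 46.3 and 6.21 after castration and 74.2 and 82.1 in Clu intact, and the smooth muscle myosin Myh11 at 64.7 and 44.8 CPM in Nkx intact, 923 and 249.9 after castration and 223 and 90.4 in Clu intact. None of these defining genes was at 0 in any library. Of the lists, 11 to 20 of the 20 leukocyte markers, 14 of 14 fibroblast and smooth muscle markers and 11 or 12 of the 12 endothelial markers had a count, by library, and the part of these cells in the cell cycle results was not tested.

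The epithelial make-up differed between groups too. RNA of the 12 basal markers came to 5895 and 6066 CPM in Nkx intact, 5392 and 3245 after castration and 3336 and 3456 in Clu intact, and Trp63, a transcription factor of basal cells, stood at 249 and 238 CPM in Nkx intact, 61.5 and 34.7 after castration and 13.2 and 24.6 in Clu intact. Nkx intact held the most Trp63 and a middle level of mitosis RNA. RNA of the 10 distal secretory markers came to 16044 and 20711 CPM in Nkx intact, 401 and 557 after castration and 9414 and 7865 in Clu intact. RNA of the 8 urothelial markers came to 256 and 279 CPM in Nkx intact, 1137 and 1516 after castration and 1882 and 1915 in Clu intact. Upk3a, a uroplakin of the bladder lining, stood at 0.574 and 0 CPM in Nkx intact, 146 and 197 after castration and 0.337 and 0 in Clu intact, almost all of it in Nkx castrate, and it was at 0 in 1 library of Nkx intact and 1 of Clu intact. Which epithelial cells held the cell cycle RNA was not tested.

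**Figure D5:**
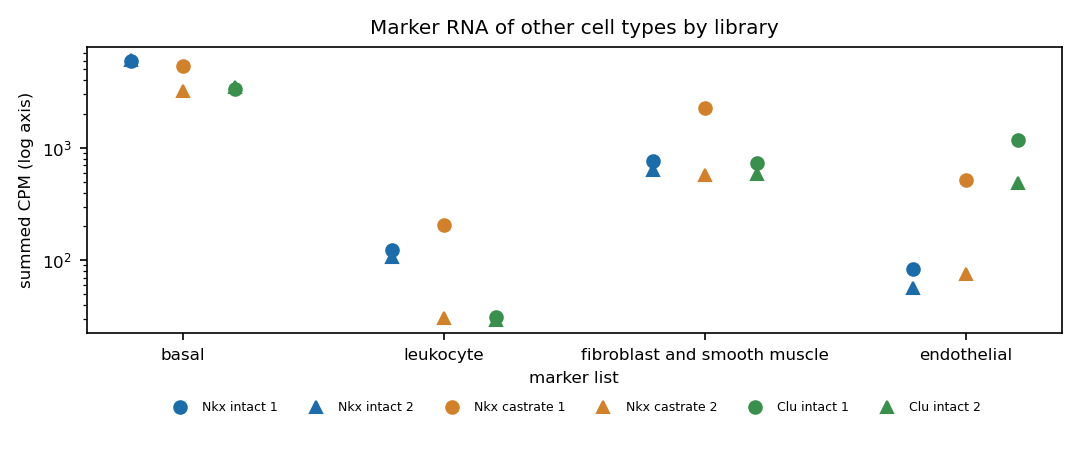
Summed CPM of marker genes of basal cells, leukocytes, fibroblasts with smooth muscle, and endothelium in each library, on a log axis, with circles for library 1 and triangles for library 2 of each group. Nkx castrate 1 lies above Nkx castrate 2 in all 4 lists, and the endothelial sum is highest in Clu intact 1.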

How the data were processed

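Per the labels' protocols, libraries were made from 2 ng of total RNA with the SMARTer Stranded Pico Input kit. The files hold raw counts of reads for each gene symbol in 6 libraries, as the authors deposited them. Tools named in the submitters' processing notes are FastQC 0.11.9, STAR 2.7.9a and featureCounts of Subread 2.0.1, with build GRCm39. Annotation, strand setting and treatment of multiply aligned reads: not given in the sources used here. Genes that share exon bases with another gene are therefore uncertain (11 of the 40 in GENCODE M21, an earlier build, while 29 share none).

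Counts were filtered (filterByExpr), scaled by TMM and fitted with glmQLFit in edgeR 4.0.16 (R 4.3.3), with a mean per group over all 6 libraries, 3 residual degrees of freedom and a biological coefficient of variation of 33.7%. The 3 comparisons used the quasi-likelihood F test, two-sided, with Benjamini-Hochberg adjustment over 13846 genes at an adjusted p under 0.05. Fold changes are log2, above 0 where the group named first has the larger value. The fit was also run on counts simulated from the means and fitted spread of these data, which does not test how far calls from 2 libraries hold. All members could be named. Of each pathway list up to 4 called genes per comparison were named, by unadjusted p, and of the marker lists the sums and defining genes. Members and lists were chosen with earlier results of these data known. Alternatives were RLE scaling, TMM without the 50 most abundant genes, no low-count filter, at least 1 CPM in 2 libraries, limma-voom (limma 3.58.1), DESeq2 1.42.0, the replicate number as a block, fits to the compared groups alone, and leaving out each library.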

Additional observations from a re-analysis of the deposited data

How the results depend on the processing

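With 2 libraries per group, most calls depend on single libraries. The number of all genes called moved too. In each comparison it was lower without an Nkx intact or a Clu intact library, and higher without an Nkx castrate library. A group left with 1 library was assumed to vary like the others. Of the 93 member values not called, 33 were called and 29 changed sign in at least 1 alternative, so values above or below 0 or without overlap, in genes that were not called, describe these libraries only. Of the 27 called values none changed sign, and 4 were called in every alternative. The called values all had no overlap between the compared groups, so leaving out a library could hardly reverse their sign. Under RLE scaling and under TMM without the most abundant genes, the counts of mitosis genes above and below 0 were as reported in each comparison, and 1 replication gene (Tyms, between Clu intact and Nkx castrate) changed sign under RLE. The cause of the changes below was not tested. Precision is limited by depth for genes of few counts, such as Bub1 and Aurkb.

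Counts of members called are given for castration within the Nkx line, then for the Clu line against Nkx intact, then for the Clu line against Nkx castrate. Replication genes called higher (0, 3 and 5 as reported) ranged over 0 to 2, 0 to 6 and 2 to 6 when each library was left out, and those called lower (2, 0 and 0) over 0 to 2, 0 to 0 and 0 to 1. Mitosis genes called higher (0, 1 and 13) ranged over 0 to 0, 0 to 10 and 2 to 17, and those lower (3 in the first) over 0 to 9. Medians of the mitosis genes ranged from -2.88 to -1.55, 1.24 to 1.88 and 2.86 to 4.91, and those of the replication genes from -0.49 to -0.16, 0.27 to 1.23 and 0.31 to 1.18.

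Over all 13846 genes the main fit called 556 higher and 636 lower in Nkx castrate than in Nkx intact. It called 871 higher in Clu intact than in Nkx intact, and 1221 than in Nkx castrate. Without a low-count filter, 2 replication genes were called higher and 8 mitosis genes lower in Nkx castrate, and 6 and 8 higher in Clu intact than in Nkx intact. Of all 19899 genes of that fit, 1197 were called higher and 1103 lower in Nkx castrate, and 1467 higher in Clu intact. DESeq2 called 1 replication gene higher and 5 mitosis genes lower in Nkx castrate, and 6 mitosis genes higher in Clu intact than in Nkx intact. Over all genes its counts were 1021 higher and 994 lower in Nkx castrate, and 1317 higher in Clu intact. Limma-voom called 1 replication gene and 0 mitosis genes lower in Nkx castrate, and 1 and 2 higher in Clu intact than in Nkx intact. Over all genes its counts were 602 lower and 669 higher for the same comparisons. It gave a mitosis median of 4.23 between Clu intact and Nkx castrate. A fit to only the groups compared called 1 and 0 lower in Nkx castrate and 6 and 10 higher in Clu intact than in Nkx intact. It called 3 and 7 higher in Clu intact than in Nkx castrate. Over all genes its counts in the same order were 374 of 13470, 1761 of 13170 and 850 of 13570. Without TMM the replication sum of Nkx castrate 2 was 204.5 CPM.

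The replicate numbers do not pair the libraries by any label, and deviations of same-numbered libraries correlated across 13846 genes at 0.0901, 0.0437 and 0.235. With the number as a block, 2 mitosis genes were called higher in Clu intact than in Nkx intact and 9 than in Nkx castrate. Over all 13846 genes these counts were 1081 and 1469.

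In the other lists the counts without 1 library ranged as follows, for the same comparisons in order. Other mitosis genes were higher in 1 to 1, 1 to 13 and 2 to 23 and lower in 0 to 9, 0 to 1 and 1 to 2. Other replication genes were higher in 0 to 0, 0 to 1 and 0 to 6 and lower in 0 to 2, 0 to 0 and 0 to 0. The G1 genes were higher in 0 to 1, 0 to 2 and 2 to 8 and lower in 0 to 7, 0 to 1 and 0 to 1. The inhibitors were higher in 0 to 0, 0 to 1 and 0 to 1 and lower in 0 to 0, 0 to 0 and 0 to 2, and the DNA damage genes higher in 0 to 1, 0 to 2 and 0 to 2 and lower in 0 to 3, 0 to 0 and 0 to 0.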
